A study of Mus musculus with 12 samples.

Results

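The ATAC-seq peaks described here lie in annotated exons and untranslated regions. They are all peaks that the authors' annotation calls an exon, a 3′ UTR or a 5′ UTR (untranslated region). There were 9569 of them among 139999 peaks, or 6.84%: 6386 exon peaks, 2931 3′ UTR peaks and 252 5′ UTR peaks. The annotation gives promoters precedence, so every one lay more than 3000 bases from the nearest gene start of the table, the closest at 3001 bases and the median at 11361. Of these peaks, 9540 (99.7%) were 400 bases wide and the widest was 797.

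ATAC-seq counts insertions of the Tn5 transposase, which enters DNA where nucleosomes are loose. Peaks at gene starts mark promoters, and peaks elsewhere often mark enhancers. Coding exons can hold enhancers too, and an exon of a long gene may equally be the start of a shorter or noncoding transcript. In macrophages the factor PU.1, of the ETS family, opens many such elements together with AP-1 and C/EBP factors.

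The 12 libraries came from bone marrow derived macrophages of male C57BL/6J mice aged 8 weeks, with 2 libraries in each of 6 groups. First-phase groups are labelled Diabetic and Healthy. Rest-phase groups are labelled Diabetic-trained and Untrained, and their marrow cells were grown for 7 days with M-CSF, the macrophage growth factor, in 5 mmol/L glucose. Second-phase groups carry the same 2 labels, and those cells then were stimulated for 16 hours with LPS at 100 ng/mL plus IFN-γ at 10 ng/mL. The diabetic donors had been given streptozotocin, a toxin of pancreatic beta cells, at 42 to 45 mg/kg daily for 5 days, and were used after 6 weeks above 16.9 mmol/L blood glucose. The labels do not give the collection time of first-phase cells or the number of animals behind a library, so a p-value reflects the spread between these libraries alone and that spread may be technical. The deposited tables do not say which mean column is diabetic. The columns are called A (the first) and B, and A in one phase need not be A in another.

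Levels below are log2 values of quantile-scaled reads plus 1. Reads were recovered from the deposited group means for 9541 of the 9569 peaks (6365 exon, 2927 3′ UTR and 249 5′ UTR). Libraries held 3827344 to 18602644 reads in peaks, and the median exon or UTR peak held 9 to 49 reads per library. In the rest phase group A was the deeper group, with 18602644 and 15990425 reads in peaks against 5454821 and 8770052 in group B. In the second phase group A was also the deeper, with 17980427 and 10288843 reads in peaks against 3827344 and 6067273 in group B. First-phase libraries A1 and A2 were close to counting error of each other and entered the comparison between phases as 1 sample, while first-phase library B2 stood apart from the other 3, with 56.4% of its reads in promoter peaks where the phase reached 65.3%. In the second phase, libraries A2 and B2 lay above A1 and B1 at the interferon-response peaks described below. The numbers 1 and 2 are names only. Promoter peaks of macrophage marker genes had library medians of 7.92 to 8.76 in the rest phase and 6.86 to 7.21 in the first. Those of neutrophil markers had 5.21 to 5.42 in the rest phase and 7.21 to 7.96 in the first, those of B cell markers 4.74 to 5.29 in the rest phase and 6.11 to 7.99 in the first, and those of erythroid markers 3.36 to 4.36 in the rest phase and 6.54 to 7.90 in the first. In every comparison of the rest with the first phase, a change of cell types and a change within macrophages cannot be told apart.

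Some exon and UTR peaks held a gene start that RefSeq (build GRCm38.p6, the same assembly as the files' mm10) lists and the authors' annotation did not treat as a promoter. There were 209 such peaks: 181 in exons, 8 in 3′ UTRs and 20 in 5′ UTRs. Their median level was 5.41, against 4.58 in the other 9360. The 300-base windows around these starts (250 bases before to 50 after) were searched on both strands. The AP-1 motif TGANTCA was in 47 of 245 windows (19.2%), against 5.53% of windows whose start lay in a promoter peak and 7.81% of all 32851 RefSeq windows. The ETS motif GAGGAAGT was in 6.53%, against 3.72% and 3.2%, and the C/EBP motif TTGCNNAA in 17.1%, against 8.28% and 10.8%. These windows held a median of 6 CG dinucleotides, near the 7 of all RefSeq windows, against 21 at promoter peaks and 4 at starts in no peak. For the other motifs the ratio to the share of all windows was smaller: the E-box CACGTG was in 9.80% (7.15% of all), the core CTCF letters AGNNGGC in 63.7% (59.8%), the NF-kB letters (GGGA, any 4 bases, CC) in 22.4% (20.7%), and the IRF letters (GAAA, any 2 bases, GAAA) in 3.27% (3.44%). Matches of different motifs may overlap.

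Shown first are the AP-1 stretches at starts whose peaks changed most between the rest and the first phase, since the share of this motif differed most from that at promoter peaks; the choice was made after the shares were seen. Each is 30 bases, 5′ to 3′ on the strand of its RefSeq gene, with the motif in capitals; the first 3 peaks rose in the rest phase and the other 3 fell.
Gm36199 start, nearest gene Pim1, chr17:29434745-29434774, plus strand: cagaacaatagaTGAGTCAcagtacgtgtg
Gm30246 start, nearest gene 4930431P22Rik, chr14:76780688-76780717, plus strand: agcacaagacgaTGATTCAtggttggtgaa
Gm32312 start, nearest gene Ostn, chr16:27326613-27326642, minus strand: aagtggcttagaTGACTCAcaaaccaggca
Gm31452 start, nearest gene 3830408C21Rik, chr13:107063597-107063626, plus strand: gtccttgactgcTGAGTCAccggctgcagc
Gm11714 start, nearest gene Pitpnc1, chr11:107428167-107428196, plus strand: gacactcaggatTGAGTCAtacttcctgca
E230001N04Rik start, nearest gene Fkbp5, chr17:28522525-28522554, plus strand: ataaatatctgtTGAATCAaaaatcaagcg

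The Gm36199 peak, in the first of 4 exons of a noncoding model near the kinase gene Pim1, rose by a log2 fold of 3.10 (SE 0.28) in the rest phase. The E230001N04Rik peak, near the glucocorticoid-induced gene Fkbp5, fell by 3.18 (SE 0.28). Both carried the motif. Peaks were picked in each direction, so these examples do not show how often the motif went with a rise or a fall. The ETS stretches were chosen in the same way, and 1 of the 4 peaks shown rose. The number shown per direction was capped, so it is not a count of all called peaks with this motif.
Gm26947 start, nearest gene Pldi, chr10:60931989-60932018, plus strand: gcgccgttgtcACTTCCTCtgccctaggca
Ifit1bl2 start, chr19:34629916-34629945, minus strand: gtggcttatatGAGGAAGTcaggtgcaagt
4833407H14Rik start, nearest gene Mirt1, chr19:53460536-53460565, plus strand: cctttcaccaaACTTCCTCctcagaagcct
Gm30388 start, in the span of Zfp648, chr1:154205464-154205493, minus strand: cactctgcacaGAGGAAGTccttgtcccct

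Gm26947 rose by 0.86 (SE 0.23). The 5′ UTR peak at Ifit1bl2, of the interferon-induced IFIT family, fell by 4.00 (SE 0.47), that at 4833407H14Rik by 2.86 (SE 0.30) and that at Gm30388 by 1.11 (SE 0.36). Over all 209 peaks with a RefSeq start, 25 rose and 61 fell (41.3% called), against 1686 and 1825 of the other peaks (37.6%). Both shares are near the 38.3% of all peaks. Promoter peaks also fell more often than they rose, with 27.1% lower and 15.2% higher in the rest phase.

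The exon peaks were of different kinds. Protein-coding genes held 3277, other genes with a gene ID 346, and 2763 (43.3%) lay in transcripts to which the annotation gives no gene ID. The last are named below by the nearest gene of the table, and the words "nearest gene" mark them. By rank, 680 lay in a first exon, 2968 in an internal exon, 1539 in a last exon and 1199 in the only exon of their transcript. First-exon peaks had the highest median level (4.97), against 4.52 in internal, 4.58 in last and 4.60 in only exons. Rank went with the kind of transcript, since 677 first-exon and 1188 only-exon peaks lay in transcripts with no gene ID. The 3 first-exon peaks with a gene ID had a median level of 4.38. Of the 3623 exon peaks with a gene ID, 2852 (78.7%) had that gene as the nearest gene, so for the rest the nearest gene is another one.

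At the top 1% of peaks the rest-phase level was 8.61 in exon, 8.32 in 3′ UTR and 8.99 in 5′ UTR peaks, against 9.67 in promoter peaks. The exon peak with nearest gene Mir30d, a microRNA gene, ranged from 9.27 to 9.91 over the 12 libraries. The 3′ UTR peak of Itgb2, the shared beta chain of the leukocyte integrins, had 9.31 to 9.67 in the rest phase and 8.77 to 9.66 in the first. The 5′ UTR peak of Lmna, which encodes the nuclear lamins A and C, had 9.34 to 9.69 in the rest phase and 8.38 to 8.67 in the first. Lmna was higher in all rest than in all first libraries, while the Itgb2 libraries overlapped. Such a rise without overlap was seen in 17.4% of exon and UTR peaks and 18.8% of all peaks. The median exon peak was at 4.57 in the rest phase and 4.76 in the first, and the median promoter peak at 5.55 and 5.75.

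Exon and UTR peaks together took 3.86 to 4.69% of reads in peaks in the first phase, 4.92 to 5.48% in the rest phase and 4.98 to 6.00% in the second. Exon peaks alone took 2.67 to 3.2%, 3.34 to 3.78% and 3.44 to 4.07%, and 3′ UTR peaks 1.06 to 1.35%, 1.41 to 1.53% and 1.39 to 1.75%. The shares of 5′ UTR peaks were 0.131 to 0.145%, 0.163 to 0.172% and 0.154 to 0.176%. Every rest and second library was above every first library in each class. The same held for intron peaks, with 16.3 to 20.9%, 24.2 to 28.8% and 26.6 to 31.6%. It also held for distal intergenic peaks, with 14.5 to 17.9%, 20.6 to 23.3% and 22.2 to 26.1%. Promoters moved the other way, with 56.4 to 65.3%, 42.3 to 50.2% and 36.2 to 46.2%. The widest 95% Wilson interval of an exon or UTR share was ± 0.0238 percentage points, which covers counting error only.

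**Figure D1:**
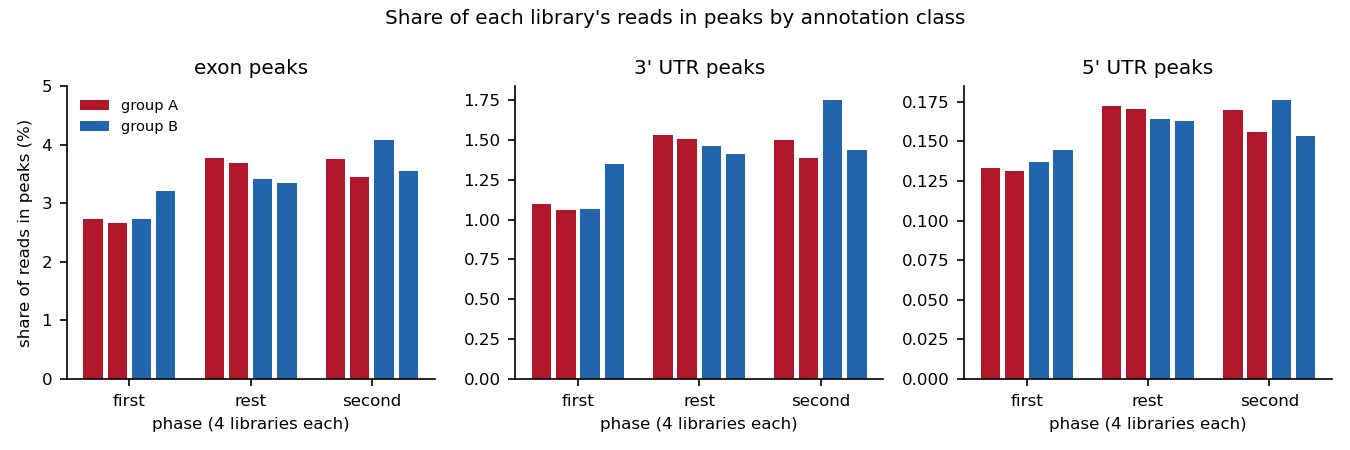
Share of each library's reads in peaks (%) that fell in exon, 3′ UTR and 5′ UTR peaks, with 1 bar per library (A1, A2, B1, B2 from left to right in each phase). In all 3 classes every first-phase bar is lower than every rest and second bar; the highest first-phase bar is library B2, at 3.2% of reads in exon peaks.

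Between the rest and the first phase, exon and UTR peaks were called in both directions. By limma on all peaks (Benjamini-Hochberg, adjusted p under 0.05, n = 4 and 3), 1155 exon peaks rose and 1275 fell, 503 3′ UTR peaks rose and 553 fell, and 53 5′ UTR peaks rose and 58 fell. Over all peaks 38.3% were called, 19.4% higher and 18.9% lower in the rest phase, and exon and UTR peaks as a whole stood near that, at 37.7% (17.9% and 19.8%). The median log2 fold was −0.07 in exon, −0.08 in 3′ UTR and −0.01 in 5′ UTR peaks, against 0.01 in all peaks and −0.22 in promoters. The split depends on scaling: 1711 rose and 1886 fell with quantile scaling, 2345 and 1121 with total reads in peaks, and 2039 and 569 with the authors' factors, which put the median of all peaks at 0.29 and 0.74. Without library B2 of the first phase, 1599 rose and 1660 fell.

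**Figure D2:**
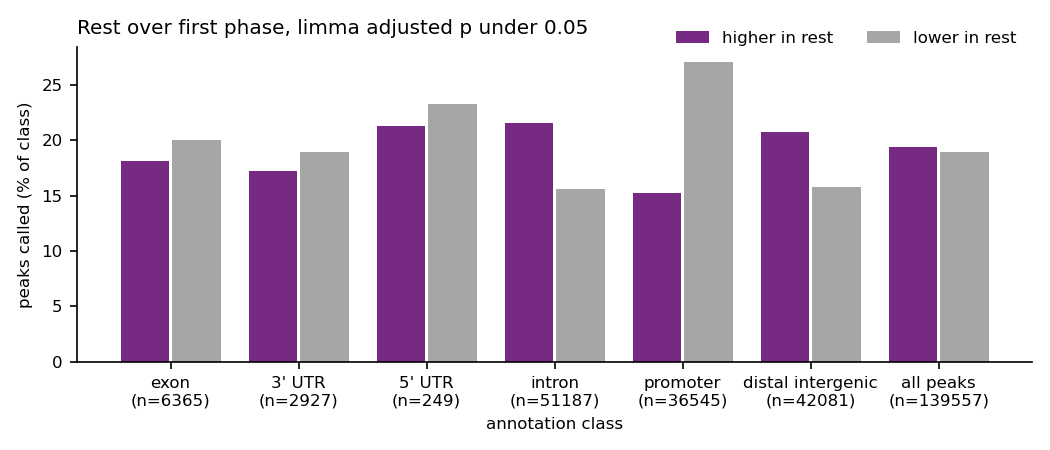
Share of peaks in each annotation class (%) that limma called higher (left bar) or lower (right bar) in the rest than in the first phase, n being the peaks tested. Exon peaks stand at 18.1 and 20% and 3′ UTR peaks at 17.2 and 18.9%, near all peaks at 19.4 and 18.9%, while 27.1% of promoter peaks were lower.

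The largest folds below were sought among called peaks with a level of at least 5 in the higher phase, leaving out numbered gene models. Among such exon peaks the largest rise was at nearest gene Stmn4, a stathmin that binds tubulin. Its levels were 9.02, 8.93, 8.45 and 8.65 in rest libraries A1, A2, B1 and B2, against 4.51, 3.26, 3.38 and 3.92 in first libraries. The limma fold was 5.09 (SE 0.26, adjusted p = 9.54e-08). The phases did not overlap, but the peak was picked for its fold. At nearest gene Slc30a4, a zinc transporter, the rest libraries had 9.12, 8.98, 7.73 and 7.52, against 3.56, 3.85, 4.09 and 3.42 (fold 4.65, SE 0.40). Exon 13 of 21 of Zranb3, which remodels stalled replication forks, and nearest gene Frmd4a followed at 4.16 (SE 0.35) and 4.08 (SE 0.33).

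Exon peaks that fell did so by as much. Exon 5 of 6 of Ppm1d, a phosphatase of the p53 response, had 2.46, 1.50, 2.22 and 1.87 in rest libraries, against 7.05, 7.01, 7.47 and 6.41 in first libraries (fold −4.96, SE 0.38). At nearest gene Cpm, carboxypeptidase M, rest libraries had 2.14, 1.12, 2.82 and 1.87, against 7.45, 7.35, 7.73 and 5.63 (fold −4.95, SE 0.52). The rest-phase levels of both peaks stand for only a few reads. Nearest genes Prickle3 and Lgsn had folds of −4.83 (SE 0.34) and −4.69 (SE 0.34).

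Among 3′ UTR peaks filtered in this way, that of Ogt rose most. Ogt is the enzyme that attaches O-GlcNAc from a glucose-derived sugar nucleotide to proteins. Rest libraries had 7.49, 7.02, 7.46 and 7.47, against 3.56, 4.34, 2.70 and 2.32 in first libraries (fold 4.34, SE 0.37, adjusted p = 1.96e-06). Ms4a7, a membrane protein known from macrophages, had 8.16, 7.98, 8.10 and 8.31 in rest libraries, against 4.89, 3.85, 4.09 and 4.89 (fold 3.70, SE 0.25). Rgs1, a brake on G protein signalling, rose by 3.91 (SE 0.61) but differed within the rest phase, with 6.88 and 5.82 in group A, against 8.49 and 9.16 in group B.

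The 3′ UTR peak of Amer2, a regulator of Wnt signalling, had the largest fall among called 3′ UTR peaks with a level of at least 5 in the higher phase. Its rest libraries had 1.12, 2.17, 4.65 and 2.97, against 8.24, 8.38, 8.18 and 8.63 in first libraries (fold −5.74, SE 0.60, adjusted p = 7.65e-06). Nearest gene Orai2, a calcium channel, fell to 2.77, 2.77, 3.11 and 2.39, against 7.63, 7.56, 7.04 and 7.95 (fold −4.75, SE 0.34). Wdr66 and Zdhhc3, a palmitoyltransferase, had folds of −4.60 (SE 0.65) and −4.59 (SE 0.61).

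The largest 5′ UTR folds were smaller in size than the largest exon and 3′ UTR folds. They were sought among 249 tested peaks, against 6365 exon and 2927 3′ UTR peaks, so these extremes are not on equal terms. Elmo1, which acts in the engulfment of dying cells, had 9.51, 9.46, 9.53 and 9.62 in rest libraries, against 7.02, 6.80, 6.64 and 6.51 in first libraries (fold 3.04, SE 0.17). Nearest gene Ins2, an insulin gene that does not overlap the peak, had 6.84, 6.74, 6.71 and 6.55, against 4.07, 3.85, 3.38 and 2.32 (fold 3.45, SE 0.37). Trim12c, of the TRIM family, had 2.32, 2.32, 3.53 and 1.87, against 6.77, 6.84, 5.73 and 7.21 (fold −4.04, SE 0.46). In each of these the rest and the first libraries were apart, but the peaks were picked for large folds. Of exon and UTR peaks, 17.4% were higher in every rest than in every first library and 19.5% lower. Over all peaks these shares were 18.8% and 18.9%.

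**Figure D3:**
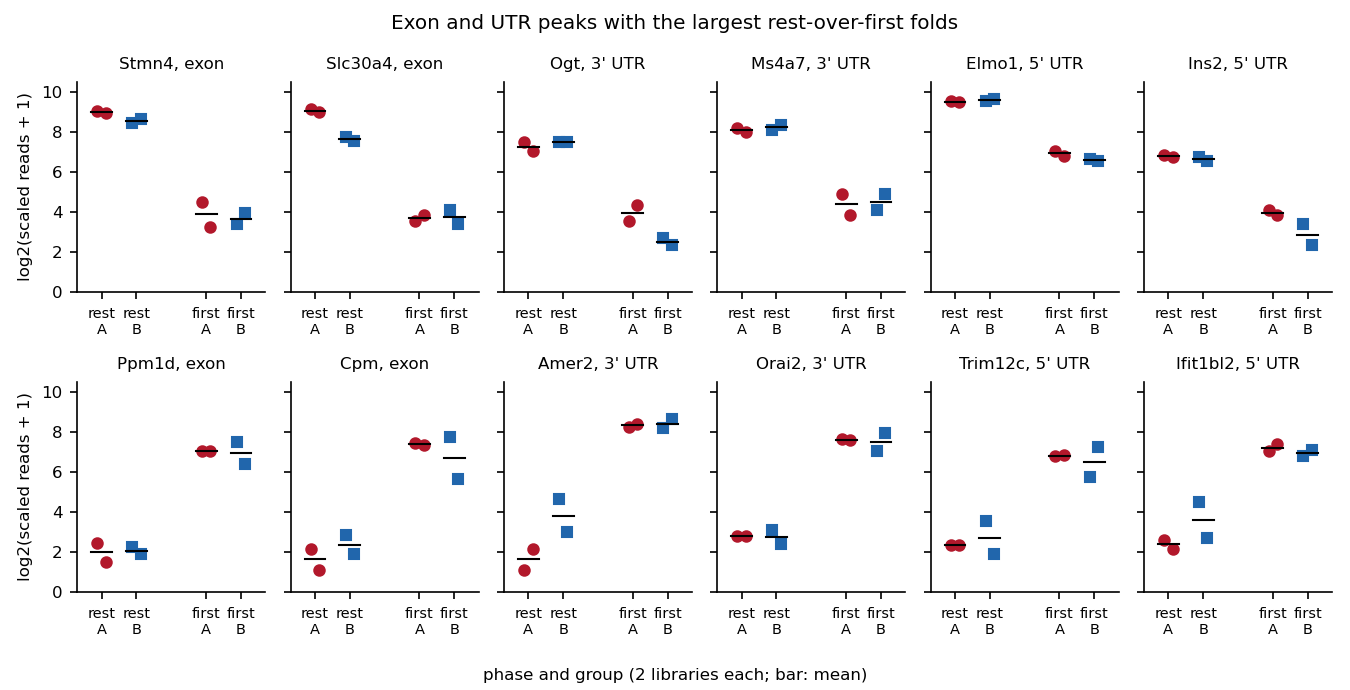
Level, as log2(scaled reads + 1), of 12 exon and UTR peaks named for their large folds, with the rest phase left of the first, 1 point per library (circles group A, squares group B) and a bar at the mean of each pair. The upper row rose and the lower row fell. No panel has an overlap of phases, but the peaks were picked for large folds. Stmn4 spans 8.45 to 9.02 in the rest phase and 3.26 to 4.51 in the first.

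Marker and metabolic genes were read from 21 gene lists, whose counts stand against 19.4% of all peaks called higher and 18.9% called lower. Of 11 peaks on the macrophage list, 4 rose and 1 fell, and the list's median fold was −0.01, against 0.01 in all peaks. The rises included 3 exon peaks of Csf1r, the M-CSF receptor. These had folds of 2.10 (SE 0.27), 2.80 (SE 0.37) and 2.13 (SE 0.27), and the 3′ UTR of the chemokine receptor Cx3cr1 had 1.90 (SE 0.24). All 3 peaks on the neutrophil list were measured and 2 fell: the 3′ UTR of the chemokine receptor Cxcr2 (−2.10, SE 0.30; limma adjusted p = 0.243 with the authors' factors) and exon 12 of 16 of Padi4 (−2.75, SE 0.38), the enzyme of neutrophil extracellular traps. Of 6 peaks on the dendritic and mast cell list 2 fell, the exon 20 peak of Flt3 (−3.21, SE 0.74) and a 3′ UTR peak of Clec9a (−1.70, SE 0.29). On the B cell list 1 of 2 fell (Ebf1, −1.43, SE 0.43) and on the T and NK cell list 1 of 3 (Tcf7, −1.05, SE 0.33). With the authors' factors limma did not call Clec9a (adjusted p = 0.475), Ebf1 (0.593, and up to 0.0875 without 1 library) or Tcf7 (0.881, and 0.165 with total reads). The erythroid and megakaryocyte list had 2 higher and 2 lower of 6, and the stromal list 1 and 1 of 7. The part of these cell types in the other folds was not tested.

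Of 8 peaks on the fatty acid synthesis list 4 fell and none rose by limma: Acly, which makes cytosolic acetyl-CoA (−2.12, SE 0.49), Acacb, a carboxylase (−1.31, SE 0.37), and an exon and a 3′ UTR peak of the desaturase Fads2 (−1.69, SE 0.44, and −2.45, SE 0.37). The 8 had a median fold of −0.78, against 0.01 in all peaks. Of 7 peaks on the list of acyl-CoA synthetases and fatty acid uptake, 3 fell, among them a 5′ UTR peak of Cd36, the fatty acid translocase (−3.65, SE 0.42), and 1 rose, at the scavenger receptor Msr1 (0.73, SE 0.21). With the authors' factors the falls at the exon and the 3′ UTR of Fads2 were not called by limma (adjusted p = 0.126 and 0.143), nor was the exon with total reads (0.0565). Acacb was not called with either scaling (0.546 and 0.0881), and Msr1 not with the authors' factors (0.0657). The other 2 that fell were exon peaks of Acsl1.

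The study's title gene Acsl1, a long-chain acyl-CoA synthetase, had 2 exon peaks, and another exon peak had it as nearest gene. At exon 5 of 21 the rest libraries had 2.32, 2.17, 2.82 and 2.14, against 6.40, 6.47, 6.80 and 4.22 in first libraries (fold −3.45, SE 0.53, adjusted p = 0.000153). The exon 6 of 6 peak had a fold of −1.24 (SE 0.43, adjusted p = 0.033) and the nearest-gene peak −1.57 (SE 0.41, adjusted p = 0.00763). The strongest promoter peak of Acsl1 had a fold of −0.25 (adjusted p = 0.185). The exon 6 fall was not called with total reads (adjusted p = 0.115) or the authors' factors (0.296), and its adjusted p by limma reached 0.110 when 1 library was left out. The nearest-gene peak was not called with the authors' factors (0.291).

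Peaks of storage, efflux and activation genes were called in both directions. Of 7 peaks on the triglyceride list 2 rose, exon 6 of 8 of Pparg, the lipid-sensing nuclear receptor (2.53, SE 0.33), and the 3′ UTR of Dgat2 (1.34, SE 0.39), and 1 fell, exon 6 of 8 of the lipid droplet gene Plin3 (−2.40, SE 0.38; limma adjusted p = 0.0629 with the authors' factors). Without 1 library the adjusted p of Dgat2 reached 0.0790. Of 9 on the cholesterol list 2 rose, the 3′ UTR of the efflux pump Abca1 (1.55, SE 0.36) and exon 11 of Soat1 (0.97, SE 0.22), and 1 fell, exon 3 of Mylip (−2.30, SE 0.44). The interferon list had 2 higher and 5 lower of 20, with Ciita, the activator of MHC class II genes, at −3.09 (SE 0.45). The osteoclast list had 2 higher of 10, exon 8 of 15 of Itgb3 (2.97, SE 0.41) and exon 4 of Tnfrsf11a, the receptor RANK (0.98, SE 0.31). The chromatin enzyme list had 6 higher (25%, near the 19.4% of all peaks) and none lower by limma of 24, with the histone methyltransferase Kmt2c at 1.54 (SE 0.34) and the remodeller Smarca4 at 1.22 (SE 0.36). Without 1 library the limma adjusted p of Tnfrsf11a reached 0.0856 and that of Smarca4 0.0580.

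Of the other lists, classical inflammatory activation had 2 higher and 2 lower of 11, alternative activation 2 and 3 of 11, and immediate early genes 2 and 1 of 4. Glycolysis had 0 higher and 1 lower of 4, fatty acid oxidation 0 and 0 of 3, the homeobox list 0 and 1 of 1, and the housekeeping list 1 and 0 of 1 (the 3′ UTR of B2m, 1.81, SE 0.33).

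Most genes with several called peaks had calls in 1 direction only, while others held peaks that moved in opposite directions. Of 263 genes with 2 or more called exon or UTR peaks, 74 had only higher, 100 only lower and 89 (33.8%) both. Over all exon and UTR peaks 1711 rose and 1886 fell, and the share of mixed genes that these counts alone would give was not tested. In Irf4, a transcription factor of B cells and macrophages, exon 8 of 9 had 2.70, 1.50, 3.70 and 2.70 in rest libraries, against 7.49, 7.09, 7.43 and 5.56 in first libraries (fold −4.10, SE 0.54). Its 3′ UTR peak at chr13:30766856-30767255 had 5.93, 6.08, 6.25 and 6.20, against 4.71, 4.10, 4.64 and 4.51 (fold 1.54, SE 0.27). In Man1a, a mannosidase of glycoprotein trimming, the 3′ UTR peak rose by 2.79 (SE 0.26), while exon 6 of 6 fell by 3.25 (SE 0.53) and exon 5 of 13 by 2.59 (SE 0.44).

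Syne1, which encodes the giant nuclear envelope protein nesprin-1, held the most, with 15 exon peaks between exons 41 and 131 of 146. Exon 131 rose by 1.92 (SE 0.39) and exon 64 by 0.96 (SE 0.36), while exon 93 fell by 4.30 (SE 0.43), exon 99 by 3.17 (SE 0.29), exon 58 by 1.89 (SE 0.50) and exon 60 by 1.15 (SE 0.41). With the authors' factors limma did not call exon 58 (adjusted p = 0.207) or exon 60 (0.447, and 0.143 with total reads), and without 1 library exons 58, 60 and 64 reached 0.0520, 0.149 and 0.128. The other 9 were not called. The 4 peaks of Scnn1a, a sodium channel subunit, were all called: exon 3 rose by 1.29 (SE 0.28) and the 3 in the 3′ UTR had folds of −1.16, −2.65 and −4.08.

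Where the host gene of an exon or UTR peak also had a promoter peak, the strongest promoter peak was set beside it. Of 974 exon and UTR peaks that rose, 217 (22.3%) had a promoter peak that rose and 253 (26.0%) one that fell. Of 1110 that fell, 136 (12.3%) and 422 (38%). Over the 4088 promoter peaks of these genes, 15.9% rose and 32.3% fell. In either direction about as many had a promoter that was not called (51.7% and 49.7%) as among all these promoters (51.7%).

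Within the rest phase, the authors' deposited table and a second fit on recovered reads gave different pictures. Among exon peaks, the authors' deposited table called 2618 higher in A and 9 higher in B, with 1158 and 3 in 3′ UTRs, and 103 and 0 in 5′ UTRs. Of all peaks 39.8% were called; 39.7% had the higher level in A and 0.0929% in B, and the median deposited log2 fold (A over B) was 1.04 in all peaks, 1.05 in exon, 1.03 in 3′ UTR and 1.05 in 5′ UTR peaks. Limma on quantile-scaled reads called 415 exon peaks higher and 236 lower in A, 158 and 159 in 3′ UTRs, and 22 and 8 in 5′ UTRs, where all peaks had 12% called, 6.48% higher in A and 5.56% higher in B. With total reads in peaks limma called 1196 higher and 597 lower, and with the authors' factors, which put the median of all peaks at 1.31, 5399 and 42. Leaving out any 1 of the libraries A1, A2, B1 or B2 leaves 1 library in a group, so calls cannot be judged there. None of 35 named folds of this comparison changed sign in those fits.

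The peaks highest in A by deposited fold were at genes of varied roles. At exon 7 of 36 of Heatr5a, the authors' deposited table gave log2 means of 6.60 in A and 2.04 in B, with a shrunken fold of 3.17 (adjusted p = 5.51e-05). Library levels were 6.23 and 4.56 in A, against 3.12 and 1.37 in B. Vezt, of cell junctions, had 6.48 and 6.21 in A at its exon 2, against 3.87 and 4.09 in B (limma fold 2.46, SE 0.29, adjusted p = 0.00232). The 3′ UTR of Atp11a, a phospholipid flippase, had 5.74 and 5.74, against 2.54 and 3.65 (2.83, SE 0.46). That of Smg1, a kinase of nonsense-mediated decay, had 6.13 and 5.81, against 3.87 and 4.01 (2.12, SE 0.31). Among 5′ UTRs, Mansc1 had 5.02 and 5.07, against 2.82 and 3.21 (2.18, SE 0.41), and Tmem168 6.22 and 5.84, against 4.04 and 4.45 (1.86, SE 0.31).

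In the other direction, the 3′ UTR of Tent5c, a poly(A) polymerase, stood first in the authors' deposited table, with log2 means of 1.87 in A and 4.97 in B and a fold of −2.15 (adjusted p = 0.00352). Library levels were 2.32 and 1.94 in A, against 5.03 and 5.86 in B. Exon 4 of 4 of Rad54l, a recombination gene, had 3.80 and 2.54 in A, against 6.33 and 6.34 in B, and a deposited fold of −1.47 (adjusted p = 0.0189). An exon peak with nearest gene Or2m12, an olfactory receptor, was at 0 in group A of the authors' deposited table, against a log2 mean of 3.11 in group B.

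Peaks of immediate early genes, which code for transcription factors induced within minutes of a stimulus, were lower in A by limma with quantile scaling or total reads, but not called with the authors' factors. The list had 4 peaks, of which 3 fell and none rose by limma with quantile scaling, where 5.56% of all peaks were lower in A, and 0 were called in the authors' deposited table. The 3′ UTR of Fosb had 5.23 and 5.42 in A, against 7.81 and 8.23 in B (fold −2.60, SE 0.20, adjusted p = 0.000666). The 3′ UTR of Atf3 had 5.80 and 4.18, against 7.45 and 8.38 (−2.86, SE 0.47, adjusted p = 0.00723), and exon 3 of 4 of Atf3 6.04 and 5.79, against 7.36 and 8.00 (−1.70, SE 0.22, adjusted p = 0.00316). Fosl2 had −0.34 (SE 0.39, adjusted p = 0.593). Deposited folds, from the authors' deposited table, were −1.07 (Fosb, adjusted p = 0.0755), −0.84 and −0.28 (Atf3, adjusted p = 0.256 and 0.672).

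Other 3′ UTR peaks lower in A, chosen after their values were seen, were those of Rgs2, which damps G protein signalling, and Zfand5, a zinc finger protein of protein turnover. Rgs2 had 6.29 and 5.42 in A, against 8.08 and 8.60 in B (−2.32, SE 0.28). Zfand5 had 5.93 and 4.89, against 7.50 and 8.20 (−2.37, SE 0.34). With the authors' factors limma called none of these peaks: Fosb had a fold of −1.12 (adjusted p = 0.165), the 3′ UTR of Atf3 −1.38 (0.0835), its exon −0.11 (0.897), Rgs2 −0.88 (0.284) and Zfand5 −0.84 (0.295). With any 1 library left out, Fosb kept a fold of −2.77 to −2.38.

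Itgb3, the integrin beta 3 chain of osteoclasts, had peaks that went opposite ways. Its exon 8 peak had 7.83 and 7.88 in A, against 6.63 and 6.50 in B (1.2, SE 0.15, adjusted p = 0.00282), and its 3′ UTR peak 4.30 and 2.89, against 7.10 and 6.24 (−3.21, SE 0.49, adjusted p = 0.00557). The osteoclast list as a whole had 2 higher and 1 lower of 10 by limma and 5 higher in A in the authors' deposited table. The triglyceride list had 2 higher, Pparg (0.96, SE 0.17) and Mgll, a lipase (0.67, SE 0.12), and 1 lower, Dgat2 (−1.17, SE 0.20), of 7; with the authors' factors Dgat2 turned to 0.38. The chromatin enzyme list had 3 higher and none lower by limma of 24, where 6.48% of all peaks were higher in A, among them the nucleosome remodellers Arid1a (1.17, SE 0.19) and Smarca4 (1.05, SE 0.28), and 14 higher in A in the authors' deposited table.

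**Figure D4:**
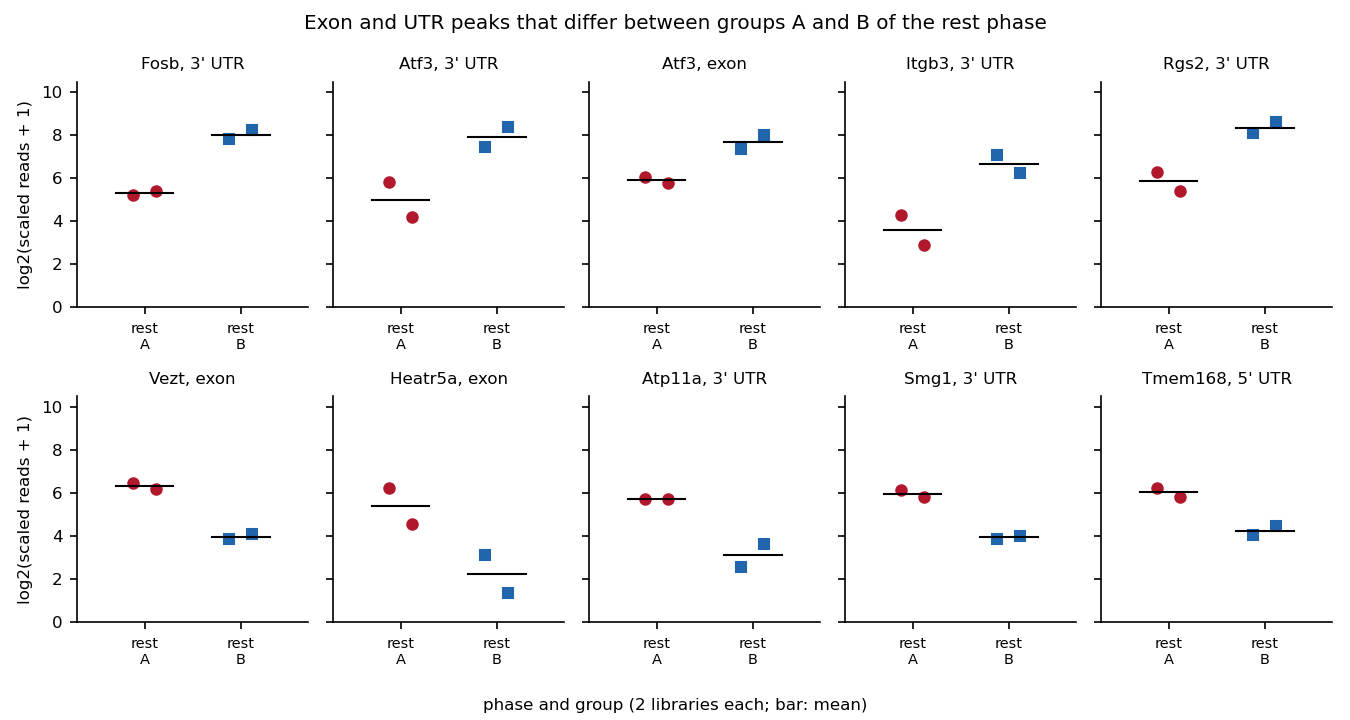
Level, as log2(scaled reads + 1), of 10 exon and UTR peaks in the rest phase, with group A left of group B, 1 point per library and a bar at the mean of each pair. The upper row is lower in A, with Fosb at 5.23 and 5.42 against 7.81 and 8.23 in B, and the lower row is higher in A.

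In the first phase no peak of any class was called, 0% of all peaks in the authors' deposited table and 0% by limma. At an unadjusted p under 0.05 the authors' deposited table had 48 of 9569 exon and UTR peaks and limma 336 of 9541, against 812 and 5214 of all peaks. In the authors' deposited table exon 6 of 6 of Man1a came first, with log2 means of 6.12 in A and 4.18 in B (DESeq2 adjusted p = 1.00). The next exon peaks had nearest genes Ms4a4a, with 5.60 and 3.98, and Plk2, a stress-induced kinase, with 0.871 and 3.75. By the same order Fancm, of DNA repair, came first among 3′ UTRs, with 0.858 and 3.66, and nearest gene Or2m12 among 5′ UTRs, with 5.54 and 4.06. None of these differences passed the adjustment.

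In the second phase the authors' deposited table called 1628 exon, 716 3′ UTR and 74 5′ UTR peaks higher in A and none higher in B. Group A was also the deeper group of this phase. Of all peaks 26.7% were called higher in A, and 0.00429% higher in B, with a median fold of 0.86, against 0.81 in exon, 0.80 in 3′ UTR and 0.83 in 5′ UTR peaks. Limma with quantile scaling called 0% of all peaks, with 84 exon and UTR peaks and 1076 of all peaks at an unadjusted p under 0.05. Exon 4 of 10 of Rhd, a blood group antigen gene, led with deposited log2 means of 6.63 in A and 3.95 in B (fold 2.11, adjusted p = 0.0242). The 3′ UTR of Ywhag, a 14-3-3 adaptor, had 6.92 and 4.34 (2.02), and the 5′ UTR of Pura, a nucleic acid binding protein, 7.78 and 5.60 (1.69). The same Rhd peak had levels of 5.96 and 5.96 in A, against 4.18 and 4.61 in B (limma adjusted p = 1.00).

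Between the second and the rest phase limma called 0% of all peaks, while 1055 exon and UTR peaks had an unadjusted p under 0.05, of 15966 in all. With the authors' factors, which were set for each phase apart, 10 exon and UTR peaks were called, all higher in the second phase. Within the second phase, libraries of the same group lay far apart at interferon genes, which immune cells switch on after IFN-γ. The 20 peaks of this list had a median level of 4.17, 5.92, 4.49 and 6.14 in second libraries A1, A2, B1 and B2, against 4.15, 4.34, 4.43 and 4.01 in rest libraries. Libraries A2 and B2 were above the rest phase, while A1 was within its range and B1 just above it. The list's median fold was 0.58, against −0.08 in all peaks. Its 20 peaks lay in 11 genes, and Rnf213 alone held 8 exon peaks, with the same median fold of 0.58.

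Peaks of this list with the smallest limma p of the second over the rest phase, picked after values were seen, had this spread as well. They were picked for a difference between the phases, so they add no separate support. Exon 12 of 17 of Parp14, an ADP-ribosyl transferase induced by interferon, had 7.78, 8.99, 7.37 and 9.48 in second libraries, against 7.60, 6.81, 5.03 and 5.70 in rest libraries (fold 1.96, SE 0.52, adjusted p = 0.422). The 3′ UTR peak of Gbp5, a guanylate-binding protein that acts against microbes, had 4.54, 7.26, 3.82 and 6.76, against 4.06, 4.32, 4.04 and 3.65 (1.62, SE 0.66, adjusted p = 0.423). The 5′ UTR peak in the span of Ifit2, which binds viral RNA, had 7.29, 8.83, 7.33 and 8.67, against 7.25, 7.05, 7.17 and 7.00 (0.79, SE 0.29, adjusted p = 0.422). Irgm1, an immunity GTPase, had 3.42, 6.32, 5.31 and 6.74, against 3.18, 4.04, 4.35 and 3.79 (1.67, SE 0.63, adjusted p = 0.422).

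The spread was not the same along a gene. Rnf213, a giant ubiquitin ligase induced by interferon, held 8 exon peaks between exons 3 and 28 of 67. Its exon 8 peak had 4.07, 7.36, 4.33 and 7.07 in second libraries, against 4.12, 3.29, 4.78 and 3.53 in rest libraries (fold 1.81, SE 0.72), while over the 8 peaks folds ran from −0.12 to 1.81. Syne1 showed the same at exon 118, with 2.91, 7.66, 3.82 and 7.72 in second libraries, against 2.89, 2.89, 3.36 and 3.38 in rest libraries. None of these folds passed the adjustment. The collection and stimulation of single libraries are not given beyond the group labels, and the part of either in this spread was not tested.

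**Figure D5:**
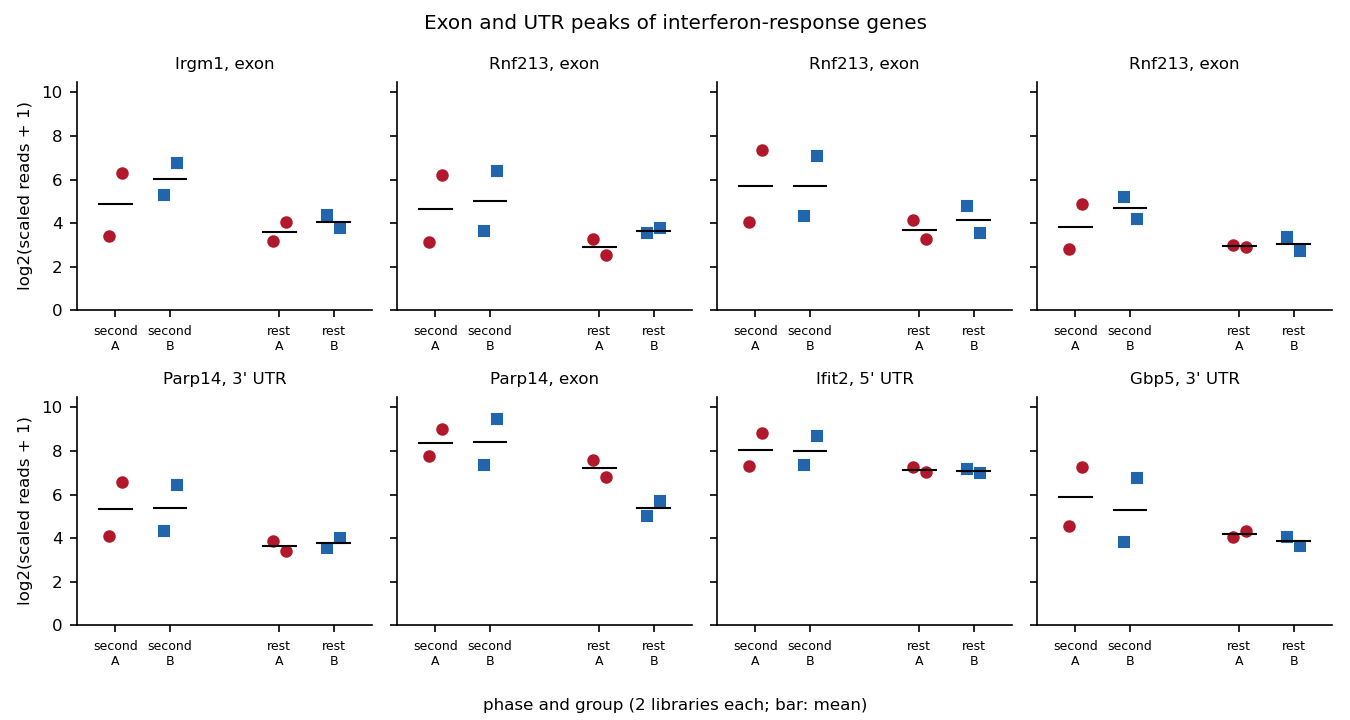
Level, as log2(scaled reads + 1), of 8 exon and UTR peaks of interferon-response genes, with the second phase left of the rest phase, 1 point per library (left point of a pair library 1, right point library 2) and a bar at the mean. In most panels a single library of either second-phase group is high, as at Gbp5 with 4.54 and 7.26 in A and 3.82 and 6.76 in B. The peaks were picked, after values were seen, by the smallest limma p of the second over the rest phase.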

How the data were processed

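Per the labels' protocols, cells were lysed, tagmented with Tn5 and sequenced as DNA nanoballs. The submitters' processing notes name the build mm10, DiffBind 3.14.0 with DESeq2, MACS2, HOMER 5.1, Bowtie2 2.5.4 and Picard 3.2.0, without roles or order. For each phase the authors deposited a table of log2 means of normalized reads of 2 groups, a shrunken log2 fold, a p-value and an adjusted p-value. Folds were turned to A over B.

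Whole reads of each library were solved from the deposited means, each of which averages 2 whole numbers times a factor (139557 peaks with exactly 1 solution, largest relative miss 3.47e-09); 442 peaks with a listed 0 were left out. Recovery and limma were tested on simulated data. Limma 3.58.1 (R 4.3.3, trend) was fitted on all peaks on log2(quantile-scaled reads + 1), within phases and between them, the later over the earlier phase, with Benjamini-Hochberg adjustment at 0.05. Levels printed for single libraries were scaled over all 12. The 2 libraries of a group were set against counting error (variance of their split over that of sampling) in peaks of at least 20 reads: the first-phase A pair had 1.13 and the others 2.07 to 15.7, and a pair under 1.2 counts as 1.

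Hosts of exon peaks come from the annotation, and those of UTR peaks from the RefSeq protein-coding span (GRCm38.p6) that overlaps them. Named were, per class and direction, the 4 largest folds among called peaks (between phases at a level of at least 5), the 3 highest levels, all Acsl1 peaks, up to 4 per gene list by p, and 3 per class by p in the first phase. Gene models with Gm, LOC or Rik names were left out of names by fold, deposited or limma, and by p in the first phase. After values were seen, interferon-list peaks with the smallest limma p of the second over the rest phase were added. Rest-phase peaks by limma fold and all peaks of Syne1 and Rnf213 were added then too. Peaks, lists and tests were chosen with earlier results of these data known. Alternatives are given in the closing section. Motifs could be searched only in RefSeq windows.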

Additional observations from a re-analysis of the deposited data

Results flagged for a closer look

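Of 48 sets of 4 libraries checked, 1 had a library far from the other 3, where chance gives about 1 in 20. At the 3′ UTR peak of Ogt the lowest rest-phase library, A2, had a level of 7.02, against 7.46 to 7.49 in the other 3. Its fold over the first phase was 4.05 to 4.49 when any 1 library was left out.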

How the results depend on the processing

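No paired analysis was possible because recovered libraries carry no replicate number. Deposited rest-phase calls of exon and UTR peaks, 3891 in all, were 1578 at an adjusted p under 0.01 and 441 when folds were centred on the median of all peaks and had to exceed 1; those of the second phase, 2418, were 0 and 24. Limma called 998 in the rest phase, 1793 with total reads in peaks and 5441 with the authors' factors. Fits of that phase without 1 library leave 1 in a group, so their calls are not given. The 3597 calls of the rest over the first phase ran from 2964 to 3707 without 1 library and from 2608 to 3848 under the other alternatives. The 24 peaks named for the largest folds of that comparison kept their call and direction under all alternatives run; some peaks named from gene lists, of Acsl1 and of Syne1 did not. Second over rest had 10 calls with the authors' factors, which were set for each phase apart, and 0 under every other alternative. Of 35 rest-phase A over B folds, 19 kept their call with the authors' factors, 10 lost it, all lower in A, and 6 turned positive, all at 5′ UTR peaks lower in A: Glipr1l3 0.82, Plekhm1 0.94, Mapk1ip1 0.79, Ppp2r3d 0.55, and 0.70 and 0.34 at 2 peaks with nearest gene Dad1. Depth limits the falls, since a level of 2 is about 3 scaled reads. No exon or UTR peak lay within 3000 bases of a gene start of the authors' table, so that alternative removed none; RefSeq starts, which 209 peaks hold, were not used for it.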
